A study of Mus musculus with 6 samples.

Results

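Kinesins are motor proteins that use ATP to move along microtubules or to take their ends apart. One set acts in cell division, where its members build the spindle, move chromosomes and complete cytokinesis, and most of these genes are switched on as cells approach mitosis. Another set carries vesicles, mitochondria and other cargo through cells that need not divide. Most hepatocytes of an adult liver are quiescent, so the levels of the division set are usually low there, while transport kinesins are used in secretion and bile canaliculus formation.

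The kinesin motor genes described here are the 41 of 54532 genes in the deposited table whose symbol is Kif followed by a number, with or without a letter a, b or c, or Kifc followed by a digit. Of these, 11 were set apart by name as mitotic (Kif4, Kif11, Kif14, Kif15, Kif18a, Kif18b, Kif20a, Kif20b, Kif22, Kif23 and Kif2c). The other 30 were divided into 17 transport kinesins and 13 others. The others include kinesins that act in cilia, in signalling or on microtubule ends, and the spindle motor Kifc1. The rule itself uses names only, although the classes were drawn up with earlier results of these data known. RNA was sequenced from primary mouse hepatocytes in 6 libraries. The 3 XCON libraries came from mice with the genotype Xbp1FL/FL (floxed Xbp1) and the 3 XCKO libraries from Xbp1ΔHep mice, which lack Xbp1 in hepatocytes. All mice were on a C57BL/6 background, were 32 to 34 weeks old and had eaten a high-fat diet for 26 weeks. The sources used here do not give the driver of the deletion, and the labels of single samples name no mouse, and p-values therefore reflect only how these libraries vary, which may be technical.

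Total counts were 23919355 to 26502456 in XCON and 26477489 to 27240079 in XCKO. Xbp1, the targeted gene, whose product drives part of the unfolded protein response, had 4453 to 9434 reads in XCON and 1013 to 1558 in XCKO, a change of −2.24 on the log2 scale. The hepatocyte markers Alb, Ttr, Apoa1, Cps1, Asgr1 and Tat, summed, lay between 58268 and 78362 CPM (reads scaled to a common library size with TMM factors) in XCON and between 78963 and 108838 CPM in XCKO, and none of them was at 0. Mitochondrial transcripts took 22.8% of the reads in XCON 1 against 8.99% to 13.1% elsewhere, and globin genes summed to 329.2 CPM (XCKO 1) and 824.8 CPM (XCKO 3) beside 9.128 to 18.59 CPM in the other libraries.

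Promoters are shown for the 4 mitotic kinesins called lower in the test below, so their shared direction follows from that choice. Each of these 4 windows holds a match to the cell cycle genes homology region (CHR). The CHR, searched as TTTGAA and, on the other strand, as TTCAAA, is bound by complexes that hold mitotic genes down in quiescent cells and raise them before division. It is often found near a CCAAT box, which was searched with the letters CCAAT and, for a box that lies on the other strand, with ATTGG. Each line runs 5′ to 3′ along the gene's strand, from 120 bases before to 30 bases after the RefSeq transcription start on GRCm38.p6, and capitals mark matches to either motif. The windows are chr19:37376262-37376411 (plus strand), chr9:122950961-122951110 (plus), chr9:61946770-61946919 (minus) and chrX:100625945-100626094 (plus), and the last line is Kif1c at chr11:70700428-70700577 (plus), the transport kinesin with the highest level.
Kif11: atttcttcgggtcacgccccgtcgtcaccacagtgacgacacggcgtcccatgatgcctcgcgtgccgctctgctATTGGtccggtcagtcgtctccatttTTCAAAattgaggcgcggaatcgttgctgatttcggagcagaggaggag
Kif15: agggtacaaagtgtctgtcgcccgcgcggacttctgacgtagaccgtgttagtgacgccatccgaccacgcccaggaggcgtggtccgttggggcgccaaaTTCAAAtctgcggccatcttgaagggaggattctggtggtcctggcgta
Kif23: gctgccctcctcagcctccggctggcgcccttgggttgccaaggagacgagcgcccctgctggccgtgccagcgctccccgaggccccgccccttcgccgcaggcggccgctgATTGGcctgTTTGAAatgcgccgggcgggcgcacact
Kif4: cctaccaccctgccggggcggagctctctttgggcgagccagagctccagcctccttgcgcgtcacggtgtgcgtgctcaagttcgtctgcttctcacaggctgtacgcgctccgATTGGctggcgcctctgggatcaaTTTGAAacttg
Kif1c: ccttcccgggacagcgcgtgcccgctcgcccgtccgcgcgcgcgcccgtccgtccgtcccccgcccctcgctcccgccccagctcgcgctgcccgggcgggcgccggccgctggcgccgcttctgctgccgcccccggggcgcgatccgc

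Counting the first base of the match along the gene, with the start as position 1, the CHR began at position −19 in Kif11 and in Kif15, at position 3 in Kif23 and at position 20 in Kif4. A CCAAT box began at position −45 in Kif11, −7 in Kif23 and −5 in Kif4. Kif15 held none in the window of 250 bases before to 50 after the start, and Kif1c held neither motif. RefSeq windows matched 32 of the 41 kinesin genes, some with more than 1 start. In that window a CHR was present in 9 of 10 mitotic kinesin promoters, in 1 of 13 promoters of transport kinesins and in 3 of 13 promoters of the others, against 17.9% of all 32851 promoters. Kif18a was the mitotic kinesin with neither motif. A CHR with a CCAAT box was found in 6 of the 10 mitotic promoters and in 6.95% of all promoters. Letters ACGTG, the core of elements that XBP1 can bind, or CACGT where it lies on the other strand, were present in 2 of 10 mitotic and 3 of 13 transport promoters, against 19.6% of all. Between 100 bases before and 30 after the start, 7 of 10 mitotic promoters held a CHR, against 7.15% of all promoters. For transport and other kinesins these were 1 of 13 and 3 of 13. The RefSeq starts of Kif14 and Kif2c, and the Kif1a start with the transport CHR, lie well inside the deposited gene. Matches to different motifs may share a base at their ends, and a match is a description of letters, not a measured binding site.

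The transport kinesins were the abundant ones. On the deposited FPKM scale, which is per gene length, 11 of 16 tested transport kinesins had a mean above 1, against 2 of 11 mitotic and 1 of 8 other kinesins. Kif1c, a motor for vesicles and Golgi traffic, had the highest level, with 18.3, 17.2 and 23.6 FPKM in XCON 1, 2 and 3, against 25.7, 24.7 and 20.5 FPKM in XCKO 1, 2 and 3. Next in order of mean FPKM over the 6 libraries were Kif1b (9.89), which carries mitochondria and vesicle cargo, Kif21a (7.13), which limits microtubule growth at the cell edge, Kif5b (6.68), the widely used heavy chain of kinesin-1, and Kif13b (4.41), a vesicle motor. Kif1c was above Kif1b, Kif1b above Kif21a and Kif5b above Kif13b in each of the 6 libraries, while Kif21a was above Kif5b in 4 of 6, so the order of that pair was within the spread over libraries. Kif20a (1.11) and Kif11 (1.04) were the highest mitotic members. Kif2a, a microtubule depolymerase that also works outside mitosis, was the highest of the others at 1.26.

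Of the 41 genes, 35 passed the filter on low counts and were tested, which were all 11 mitotic, 16 of 17 transport and 8 of 13 other kinesins. Kif28, Kif2b and Kif6 had no read. Kif17 had 5 reads in all, 4 of them in XCKO 3. Kif27 had 3, 4 and 1 reads in XCON 1, 2 and 3, against 0, 1 and 0 in XCKO 1, 2 and 3. Kif12, mutated in a human cholestatic liver disease, had 14, 15 and 9 reads in XCON 1, 2 and 3, against 1, 3 and 2 in XCKO 1, 2 and 3, and its groups did not overlap. It missed the filter and has no test. The filter asks for about 0.378 CPM in 3 libraries, and 7 of the 35 tested genes did not reach that in all XCKO libraries. Kif1a, Kif5c, Kif19a and Kif26b reached it in none of the XCKO libraries, so they entered the test through XCON and could hardly have come out higher in XCKO.

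Among the tested kinesins, 6 were lower in XCKO at an adjusted p of 0.05 (edgeR quasi-likelihood F test, Benjamini-Hochberg over all 14873 genes), and 0 were higher. Over all genes tested, 4.05% were called lower and 5.21% higher. Called lower were 4 of 11 mitotic kinesins (Kif11, Kif15, Kif23 and Kif4), 1 of 16 transport kinesins (Kifc3) and 1 of 8 others (Kif19a). DESeq2 called 13 lower and 0 higher, where it called 8.32% of all genes lower. Its 13 were these 6 with Kif14, Kif20a, Kif20b, Kif2c, Kif1a, Kif21b and Kif5c. At an unadjusted p under 0.05 edgeR had 19 kinesins lower, 10 of them mitotic, and 0 higher, where 15.4% of all genes were lower. Kif1a, Kif5c, Kif19a and Kif26b, which entered the test through XCON, are all among these 19. All but Kif26b are among the 13 of DESeq2, and Kif19a is among the 6. The authors' deposited table called 11 kinesins lower (7 mitotic, 3 transport and 1 other) and 0 higher, where it called 4.66% of its genes lower and 5.51% higher.

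**Figure D1:**
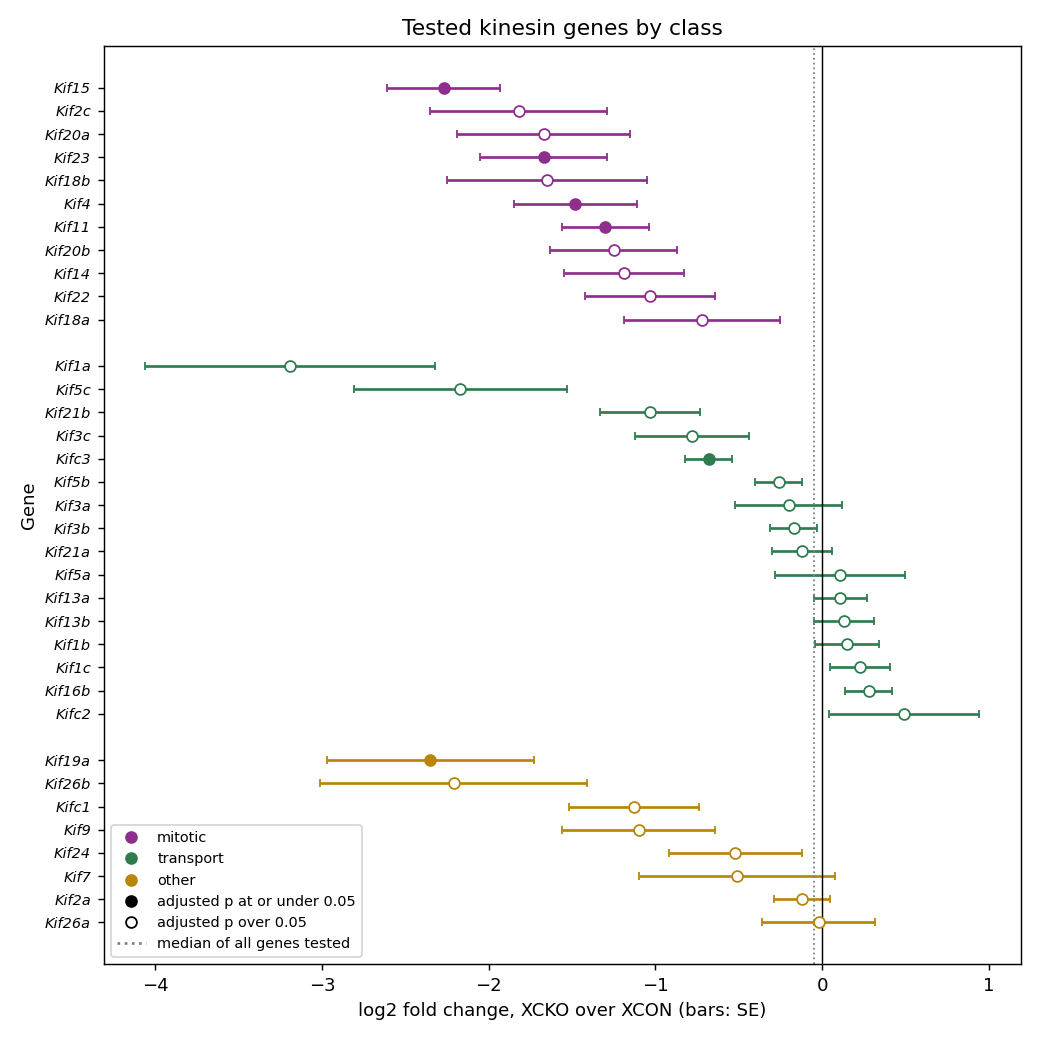
log2 fold change (XCKO over XCON, horizontal axis) of the 35 tested kinesin genes by class, with bars of 1 SE. Filled points passed an adjusted p of 0.05 and the dotted line is the median of all genes tested, −0.05. All 11 mitotic points lie between −2.27 and −0.72, while transport points run from −3.19 to 0.49.

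All 11 mitotic kinesins had a negative log2 fold change, which 53.5% of all genes had, and in 10 of the 11 every XCKO library lay below every XCON library, against 18.1% of all genes. Kif18a, which damps chromosome movements at the metaphase plate, was the exception, with 1.65, 0.77 and 0.947 CPM in XCON 1, 2 and 3, against 0.891, 0.621 and 0.519 CPM in XCKO 1, 2 and 3. It is uncertain, since Mettl15 overlaps it on the opposite strand with 466 reads in all against 142 for Kif18a. The median log2 fold change was −1.48 over the 11 mitotic kinesins, −0.15 over the 16 tested transport kinesins, −0.81 over the 8 others and −0.05 over all genes tested. The mitotic minus transport difference of medians was −1.33 on the log2 scale, and the same difference taken in each XCKO library against the XCON mean had an SD of 0.27 (n = 3). That SD leaves out the spread among XCON libraries. On the same scale the mitotic median lay at 0.02, −0.43 and 0.38 in XCON 1, 2 and 3, and the transport median at −0.01, 0.04 and −0.04. Without XCON 3 the difference of medians was −1.06. As members and classes were chosen with results known, no p is given for these medians.

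Both plus-end motors that hold spindle poles apart, Kif15 and Kif11, passed edgeR's test. Kif15, which helps keep spindle poles apart (ENSMUSG00000036768, chr9:122951046-123018733, plus strand), had 93, 69 and 89 reads in XCON 1, 2 and 3, against 18, 14 and 14 in XCKO 1, 2 and 3. The groups were far apart, and the highest XCKO library held 18 reads against 69 in the lowest XCON library. Kif15 fell from 3.04 ± 0.53 to 0.626 ± 0.094 CPM (SD, n = 3). The change was −2.27 ± 0.34 (SE) on the log2 scale (edgeR, adjusted p = 0.011). It was the only kinesin called in each of the 6 fits that leave out 1 library, where its adjusted p lay between 0.026 and 0.045. Kif11, the Eg5 motor that pushes spindle poles apart (ENSMUSG00000012443, chr19:37376403-37421859, plus strand), had 183, 148 and 273 reads in XCON 1, 2 and 3, against 66, 74 and 75 in XCKO 1, 2 and 3. The XCKO libraries were close together while XCON 3 stood above the other XCON libraries. Kif11 fell from 7.23 ± 1.9 to 2.93 ± 0.29 CPM (SD, n = 3). The change was −1.30 ± 0.26 (SE) on the log2 scale (edgeR, adjusted p = 0.023). With 1 library left out it was called only without XCON 2, and its highest adjusted p was 0.066, without XCKO 3.

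Among motors of chromosome arms and microtubule ends, edgeR called 1 and DESeq2 also Kif2c (adjusted p = 0.0084). Kif4, which acts on chromosome arms and at the spindle midzone (ENSMUSG00000034311, chrX:100625737-100727214, plus strand), had 88, 58 and 117 reads in XCON 1, 2 and 3, against 37, 23 and 23 in XCKO 1, 2 and 3. Every XCKO library was lower than every XCON library, and Kif4 fell by 1.48 ± 0.37 (SE) on the log2 scale, with an edgeR adjusted p of 0.042 that went above 0.05 (0.051 to 0.12) without any 1 library. Kif4 overlaps Pdzd11 on the opposite strand, and the sources used here do not say whether strand was used in counting. Pdzd11 itself had a log2 fold change of 0.00. Kif2c, the centromeric depolymerase MCAK, had 98, 38 and 140 reads in XCON 1, 2 and 3, against 31, 27 and 11 in XCKO 1, 2 and 3, a log2 change of −1.82 ± 0.53 (SE; edgeR, adjusted p = 0.062). Its XCON libraries were spread widely, and XCON 2 lay just above the XCKO libraries. Kif22, the chromosome arm motor Kid, had a log2 fold change of −1.03 and an adjusted p of 0.12 in the same edgeR test. Kif18b, which shortens astral microtubules, had −1.65 and 0.11, and Kif18a −0.72 and 0.33.

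Of the motors of the midzone and cytokinesis, edgeR called 1, while DESeq2 also called Kif20a, Kif20b and Kif14 (adjusted p = 0.0094, 0.02 and 0.043). Kif23, the motor of the centralspindlin complex (ENSMUSG00000032254, chr9:61915905-61946774, minus strand), had 147, 147 and 132 reads in XCON 1, 2 and 3, against 61, 22 and 36 in XCKO 1, 2 and 3. Here the XCON libraries were close and the XCKO libraries differed most among themselves. Kif23 fell from 5.17 ± 0.63 to 1.63 ± 0.81 CPM (SD, n = 3). The change was −1.67 ± 0.38 (SE) on the log2 scale (edgeR, adjusted p = 0.032). With 1 library left out it was called only without XCKO 1 and without XCKO 2, and reached 0.098 without XCKO 3. Kif20a, the MKLP2 motor, had 152, 85 and 311 reads in XCON 1, 2 and 3, against 75, 54 and 23 in XCKO 1, 2 and 3. Its XCON libraries ranged more widely than those of Kif23, and its log2 change was −1.67 ± 0.52 (SE; edgeR, adjusted p = 0.082). Cdc23, which overlaps Kif20a on the opposite strand, had a log2 fold change of 0.02. Kif20b and Kif14, both needed late in cytokinesis, had log2 fold changes of −1.25 and −1.19 with adjusted p-values of 0.068 and 0.07 in edgeR's test.

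**Figure D2:**
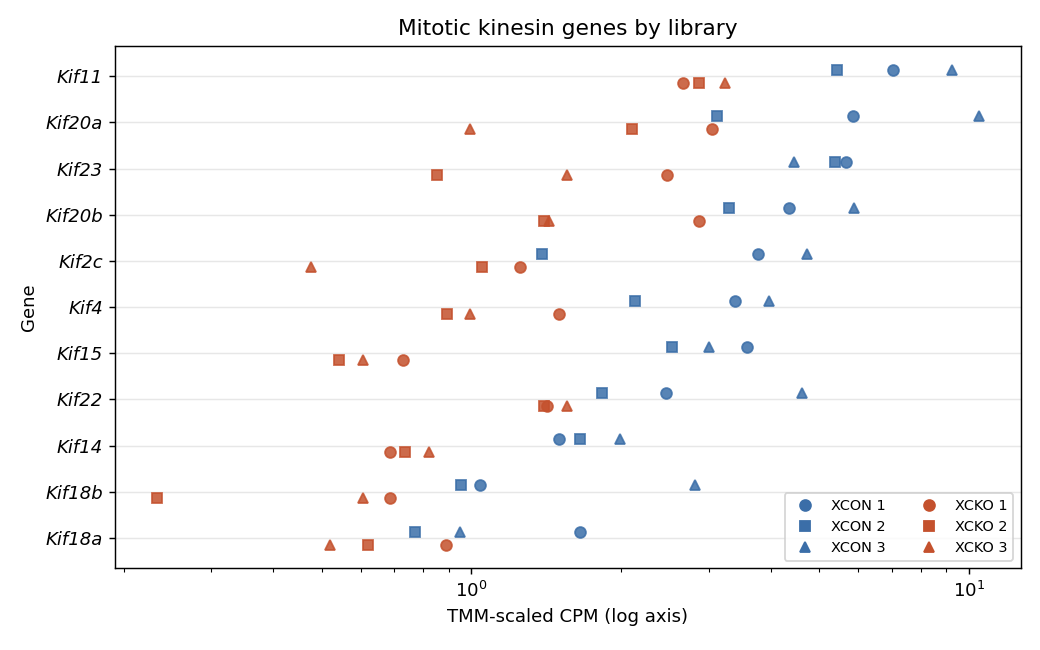
TMM-scaled CPM of the 11 mitotic kinesin genes in each library (log axis), XCON in blue and XCKO in orange, with a marker shape for each replicate number. The colours separate in every row except Kif18a, and XCON 3 is the highest point in 8 of the 11 rows.

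The mitotic kinesins varied together among the XCON libraries. XCON 3 was the highest of all 6 libraries for 8 of the 11 genes, where it was highest for 15.3% of all genes tested, and XCON 2 was the lowest XCON library for 9 of the 11. Summed over the 11 genes, the level was 40.3, 28.5 and 52.2 CPM in XCON 1, 2 and 3, against 18.2, 12.7 and 12.8 CPM in XCKO 1, 2 and 3. The groups of sums did not overlap, and the XCON libraries differed more from one another than the XCKO libraries did. The depth behind these sums was 777 to 1543 reads in XCON and 296 to 450 in XCKO.

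Kifc1, the minus-end spindle motor HSET, was counted with the other kinesins by name although it works in mitosis. It had 97, 60 and 121 reads in XCON 1, 2 and 3, against 53, 26 and 33 in XCKO 1, 2 and 3, so its groups did not overlap. The log2 change was −1.13 ± 0.39 (SE; edgeR, adjusted p = 0.094). Its near-identical relative Kifc5b had 42, 31 and 49 reads in XCON against 23, 22 and 25 in XCKO, and the split of reads between them is uncertain. The Kifc1 promoter also held a CHR, at position 2, and a CCAAT box at positions −74, −45 and 25.

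Genes that work with the mitotic kinesins included many lower ones. Of 35 such genes, 34 were tested, 17 were lower in XCKO, where 4.05% of all genes were, 0 were higher and 17 did not pass, with a median log2 fold change of −1.36. Top2a, which untangles chromosomes before they separate, fell from 20.4 ± 4.5 to 6.56 ± 0.81 CPM (SD, n = 3). Bub1 and Cenpe, a checkpoint kinase and the kinetochore kinesin outside the naming rule, fell by 2.50 and 1.98 on the log2 scale. Prc1, which bundles midzone microtubules and recruits Kif4, fell by 1.80. Cenpe and Prc1 were no longer called without XCKO 3 (edgeR, adjusted p = 0.053 and 0.067). The proliferation marker Mki67 had 33.1 ± 11 CPM in XCON and 12.3 ± 5.5 CPM in XCKO (SD, n = 3) with an edgeR adjusted p of 0.056. XCON 3 was the highest library for 28 of the 34 tested genes.

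**Figure D3:**
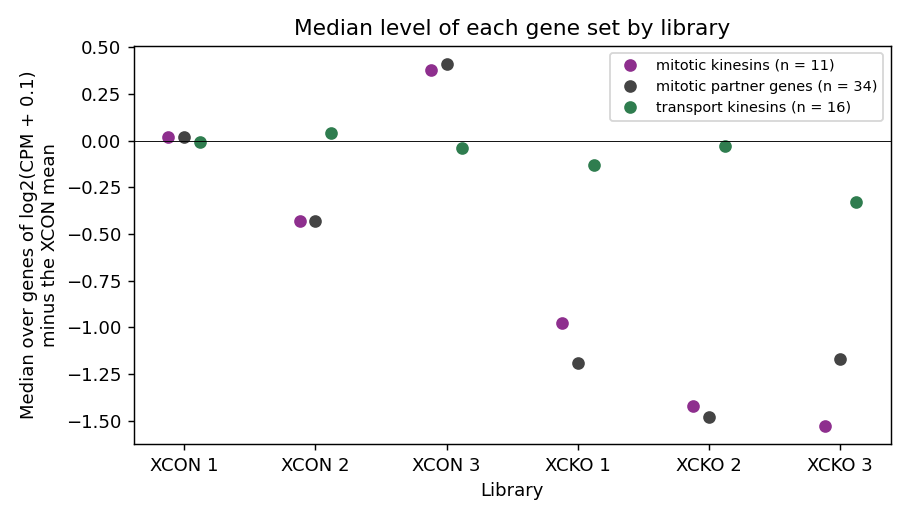
Median over the genes of each set of log2(CPM + 0.1) minus that gene's XCON mean, in each library, for the 11 mitotic kinesins, the 34 tested partner genes and the 16 tested transport kinesins. Mitotic kinesins lie at 0.02, −0.43 and 0.38 in XCON 1, 2 and 3, and XCKO lies at −0.98, −1.42 and −1.53 in replicates 1, 2 and 3, with the partner genes near them, while transport kinesins stay between −0.33 and 0.04.

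Markers of other liver cell types also differed between libraries. Macrophage markers, summed over 8 genes, were 1040, 1687 and 889 CPM in XCON 1, 2 and 3, against 780, 296 and 768 CPM in XCKO 1, 2 and 3, with 1 of 8 called lower (Cd68, a log2 fold change of −1.34). Stellate markers, summed over 7 genes, were 234, 438 and 533 CPM in XCON 1, 2 and 3, against 236, 93.8 and 143 CPM in XCKO 1, 2 and 3, with 2 of 7 called lower (Lrat, −0.78, and Pdgfrb, −1.48). Over all genes 4.05% were called lower. Every XCKO library lay below every XCON library for 6 of 8 macrophage and 4 of 7 stellate markers, against 18.1% of all genes. Median log2 fold changes were −1.08 for macrophage, −1.05 for stellate, −1.48 for lymphocyte and −1.74 for cholangiocyte markers. They were 0.06 for endothelial, 1.84 for neutrophil, 4.45 for erythroid and 0.53 for hepatocyte markers, against −0.05 over all genes tested. With 1 library left out, Cd68 and Pdgfrb were each called in 3 of 6 fits and Lrat in 1 of 6, without XCKO 1. Lymphocyte markers ran from 55.1 to 115 and from 15.6 to 52.1 CPM, and cholangiocyte markers from 251 to 583 and from 82.5 to 162 CPM, with no member called by edgeR among 6 and 5 tested (smallest adjusted p 0.078 for Ptprc and 0.053 for Spp1). Both sums were mostly those genes: Ptprc, which other leukocytes also express, held 53 of the 55.1 CPM in XCON 3, and Spp1 held 563 of the 583 CPM in XCON 1. Every other marker of both lists except Krt7 overlapped between the groups. Endothelial markers ran from 380 to 391 and from 288 to 619 CPM, with 0 of 6 called by edgeR (smallest adjusted p 0.26, Clec4g). Neutrophil and erythroid markers ran from 2.91 to 15.6 and from 42.1 to 70 CPM in XCON and from 2.72 to 62 and from 77.4 to 921 CPM in XCKO, with 0 of 3 and 0 of 5 called by edgeR (smallest adjusted p 0.21 for S100a8 and 0.076 for Alas2). Of the hepatocyte markers, 1 of 6 was called, Asgr1, with a log2 fold change of 0.95, called in 3 of 6 fits with 1 library left out. None of the markers of these 8 lists was at 0 in all libraries. The macrophage sum was highest in XCON 2, where 9 of 11 mitotic kinesins were at their XCON minimum, and the stellate sum was highest in XCON 3, where 8 of 11 were at their maximum. The part of these cells in the kinesin differences was not tested, and in bulk RNA fewer cells of a type and less RNA per cell cannot be told apart.

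The transport kinesins had no common direction. Of the 16 tested, 9 had a negative and 7 a positive log2 fold change, 6 had every XCKO library below every XCON library and 1 had every XCKO library above, against 18.1% and 17.6% of all genes. The 6 include Kif1a and Kif5c, which entered the test through XCON and could hardly have lain above it. Kifc3, a minus-end motor of apical transport and cell junctions (ENSMUSG00000031788, chr8:95099828-95202812, minus strand), was the member that passed. It had 527, 489 and 541 reads in XCON 1, 2 and 3, against 292, 330 and 248 in XCKO 1, 2 and 3. Both groups were tight, and Kifc3 fell from 18.8 ± 1.3 to 11.8 ± 1.0 CPM (SD, n = 3). The change was −0.68 ± 0.14 (SE) on the log2 scale (edgeR, adjusted p = 0.027). Without any 1 library the adjusted p lay between 0.053 and 0.088, with the log2 fold change between −0.71 and −0.59. The antisense transcript Gm31036 overlaps Kifc3 on the opposite strand with 90 reads in all against 2427 for Kifc3, and had a log2 fold change of −0.85 (edgeR, adjusted p = 0.42).

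**Figure D4:**
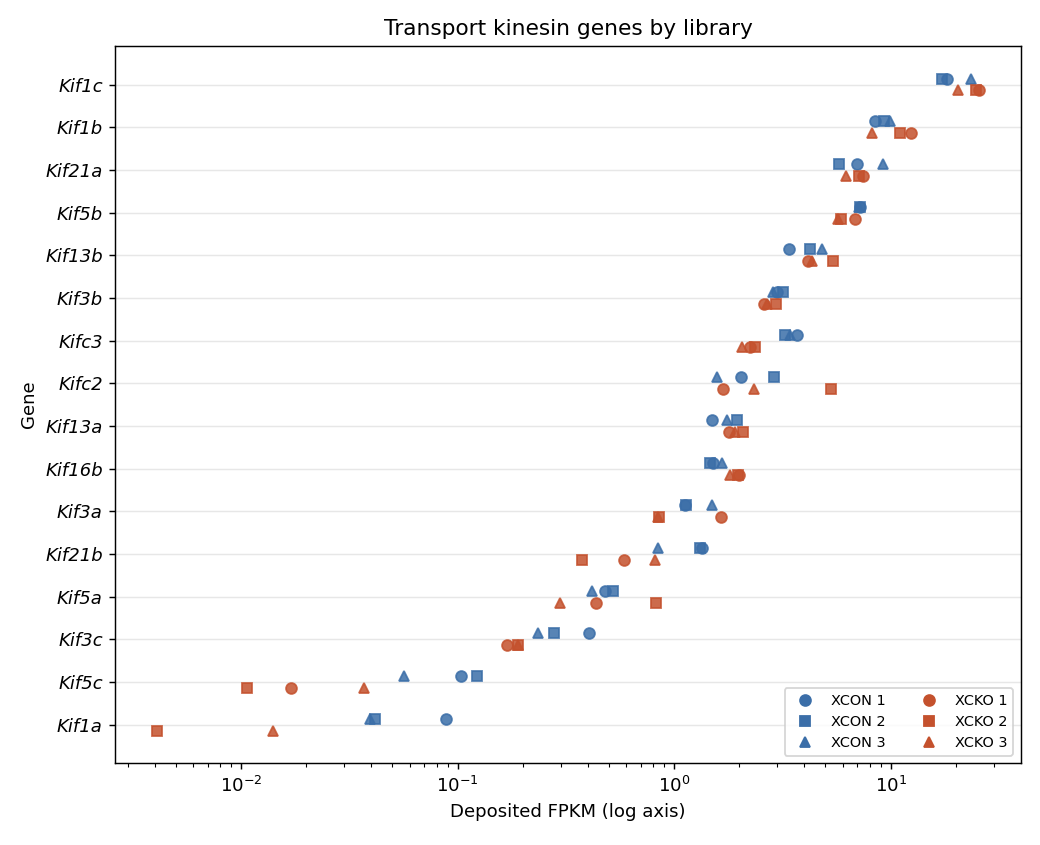
Deposited FPKM of the 16 tested transport kinesin genes in each library (log axis), XCON in blue and XCKO in orange, with a marker shape for each replicate number; Kif1a in XCKO 1, at 0, is not drawn. In the 5 genes at the top, colours overlap except for Kif5b, whereas Kifc3 and the low genes Kif21b, Kif3c, Kif5c and Kif1a have every XCKO point to the left.

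None of the abundant cargo motors passed the test. Kif1b had 8.48, 9.34 and 9.95 FPKM in XCON 1, 2 and 3, against 12.4, 11 and 8.24 FPKM in XCKO 1, 2 and 3, its groups overlapping through XCKO 3. Kif1c had a log2 fold change of 0.23 ± 0.18 (SE) and Kif1b of 0.15 ± 0.19, with adjusted p-values of 0.42 and 0.63 in edgeR's test, and both signs turned when counts were scaled by library totals alone (−0.03 and −0.10). Kif5b had 1426, 1527 and 1567 reads in XCON 1, 2 and 3, against 1255, 1149 and 966 in XCKO 1, 2 and 3, a log2 change of −0.26 ± 0.14 (SE; edgeR, adjusted p = 0.25). The kinesin-2 genes Kif3a and Kif3b, which drive transport in cilia, had −0.20 ± 0.32 and −0.17 ± 0.14 (SE), neither past the test. Kif16b, an early endosome motor, was the member with every XCKO library above XCON, with 14.2, 13.8 and 15.2 CPM in XCON 1, 2 and 3, against 18.1, 18.2 and 16.2 CPM in XCKO 1, 2 and 3, and an edgeR adjusted p of 0.21. Kifc2 stood out for 1 library, with 550 reads in XCKO 2 against 164 to 324 in the others. Its log2 fold change went from 0.49 ± 0.45 (SE) to −0.11 without XCKO 2. Kifc2 is also uncertain because Cyhr1 overlaps it on the opposite strand, with 9570 reads in all against 1646 for Kifc2. Cyhr1 itself was called higher, with a log2 fold change of 0.53 (edgeR, adjusted p = 0.047). Kif21a, Kif13b, Kif13a, a motor for endosomal cargo, and Kif5a, a neuronal heavy chain of kinesin-1, had log2 fold changes of −0.12, 0.13, 0.11 and 0.11. Kif3c, another kinesin-2 motor, had −0.78 ± 0.34 (SE; edgeR, adjusted p = 0.17). It is uncertain, since an antisense transcript overlaps it on the opposite strand with 264 reads in all against 291 for Kif3c.

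Kif1a, Kif5c and Kif21b, best known from neurons and immune cells, lay below the abundant motors and did not pass edgeR's test, while DESeq2 called all 3 lower (adjusted p = 0.028, 0.05 and 0.019). The authors' deposited table called Kif1a (adjusted p = 0.035) and Kif21b (0.018) lower. Kif1a and Kif5c entered the test through XCON and could hardly have come out higher in XCKO. Kif1a, which carries synaptic vesicle precursors, had 22, 11 and 11 reads in XCON 1, 2 and 3, against 0, 1 and 3 in XCKO 1, 2 and 3, a log2 change of −3.19 ± 0.87 (SE; edgeR, adjusted p = 0.054). Kif5c, a neuronal heavy chain of kinesin-1, had 20, 25 and 12 reads in XCON against 3, 2 and 6 in XCKO (edgeR, adjusted p = 0.063). Kif21b, a motor of neurons and lymphocytes, had 440, 459 and 306 reads in XCON 1, 2 and 3, against 176, 120 and 227 in XCKO 1, 2 and 3, a log2 change of −1.03 ± 0.30 (SE; edgeR, adjusted p = 0.064). Its groups did not overlap, although XCON 3 and XCKO 3 were close at 10.3 and 9.81 CPM. The leukocyte marker Ptprc, set beside Kif21b after both were seen, put the 6 libraries in the same order, with 97.8, 95.8 and 53 CPM in XCON 1, 2 and 3, against 28.1, 13.7 and 46.5 CPM in XCKO 1, 2 and 3. The part of leukocytes in the Kif21b difference was not tested.

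Among the other kinesins, Kif19a passed, although it entered the test through XCON and could hardly have come out higher in XCKO. Kif19a, which shortens microtubules at the tips of motile cilia (ENSMUSG00000010021, chr11:114765388-114790739, plus strand), had 22, 28 and 27 reads in XCON 1, 2 and 3, against 7, 1 and 5 in XCKO 1, 2 and 3. The groups were separate at very low depth, and Kif19a fell by 2.35 ± 0.62 (SE) on the log2 scale with an edgeR adjusted p of 0.048 (0.071 to 0.12 without any 1 library). Of 5 markers of ciliated cells 0 passed the filter, their sum lay between 0.203 and 1.12 CPM in all libraries, and Tekt1 was at 0. Kif26b, an atypical kinesin, had 12, 21 and 15 reads in XCON against 0, 6 and 3 in XCKO and an edgeR adjusted p of 0.11. Kif9, a kinesin of motile cilia, had a log2 fold change of −1.10 and an edgeR adjusted p of 0.15. Kif2a had 231, 237 and 234 reads in XCON 1, 2 and 3, against 195, 213 and 170 in XCKO 1, 2 and 3, with a log2 fold change of −0.12 ± 0.17 (SE). Kif7, a ciliary regulator of Hedgehog signalling, Kif24 and Kif26a did not pass, with log2 fold changes of −0.51, −0.52 and −0.02. Kif7 overlaps the replication gene Ticrr, which fell by 2.18, on the opposite strand, and is uncertain.

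Calls among the cargo adaptors and the minus-end dynein machinery were near the shares of all genes, 4.05% lower and 5.21% higher. Of 18 tested kinesin light chains and adaptors 1 was lower, Plekhm2, which links kinesin-1 to lysosomes through Arl8b, from 33.9 ± 1.5 to 23.2 ± 1.2 CPM (SD, n = 3), and 17 did not pass. Of 25 tested dynein and dynactin genes 1 was higher, the dynein light chain Dynll2, with a rise of 0.64 on the log2 scale, and the other 24 did not pass. With 1 library left out, Plekhm2 was called in 0 of 6 fits (edgeR, adjusted p from 0.066 to 0.1) and Dynll2 in 1 of 6, without XCON 3 (0.05 to 0.11). Length correction ended both calls (0.051 and 0.062), and library totals alone ended that of Dynll2 (0.17). Among 13 tested tubulins and 20 tested intraflagellar transport genes edgeR called 0. The smallest adjusted p was 0.051 for Tubg1, with a log2 fold change of 0.55, and 0.19 for Ift81, with −0.74. Median log2 fold changes of the 4 lists were −0.10, 0.02, −0.35 and −0.13.

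Gene length was taken into account because fold changes fell with length over all genes and kinesin genes are long. The deposited length had a median of 6957 bases over the 35 tested kinesins (5514 for mitotic and 7336 for transport members) against 3976 bases over all genes tested. Spearman's rho of log2 fold change and length was −0.22 across all 14873 genes, 0.11 across the 35 kinesins, 0.15 across the 11 mitotic and 0 across the 16 transport members, as a description across genes that share the libraries. Values of the curve over all genes at the lengths of mitotic kinesins lay between −0.24 and −0.02. Measured from this curve, the median log2 fold change was −1.37 for mitotic, −0.02 for transport and −0.74 for other kinesins and 0.02 for all genes, and in the length-corrected fit the mitotic minus transport difference was −1.36. In the edgeR fit with length correction, which called 2.86% of all genes lower and 4.6% higher, 4 kinesins were lower and 0 higher. These were Kif11, Kif15, Kif23 and Kifc3, with adjusted p-values of 0.03, 0.018, 0.048 and 0.036, while Kif4 and Kif19a had 0.057 each.

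**Figure D5:**
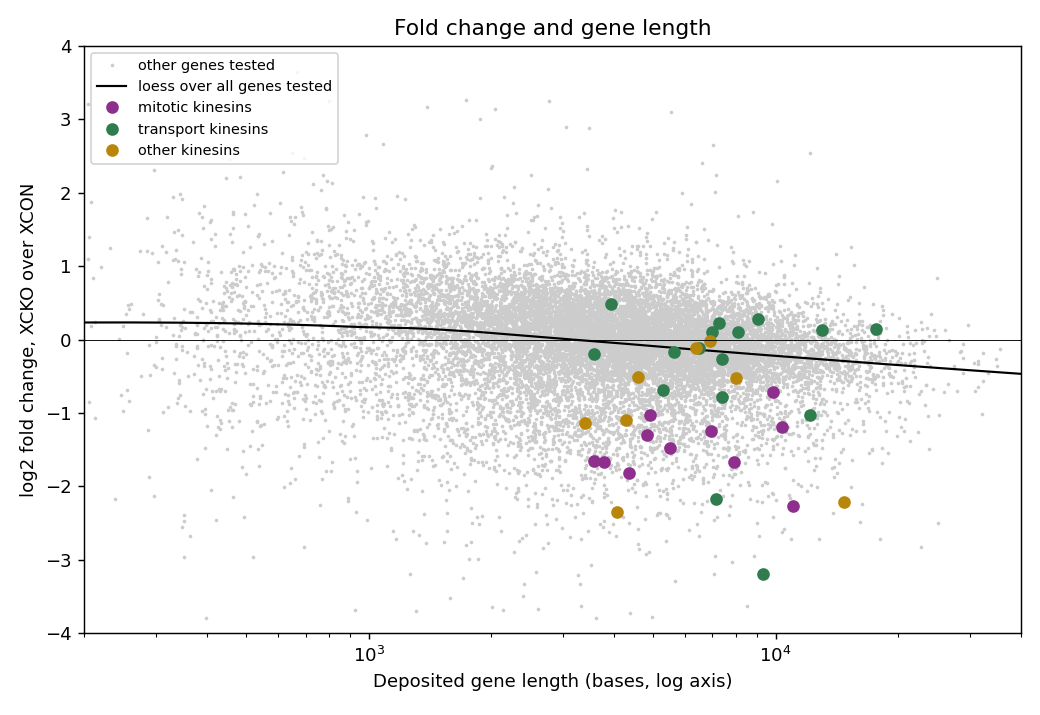
log2 fold change (XCKO over XCON) against deposited gene length (bases, log axis) for all genes tested with a log2 fold change within 4 of 0 and a length inside the axis (grey), with the loess curve over all genes and the tested kinesins in colour by class. The curve passes from above 0 to below 0 with length, and the mitotic kinesins lie below it at each length they occupy.

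Scaling and single libraries set how many kinesins were called. Scaling by library totals alone shifted the all-gene median by −0.26 on the log2 scale, to −0.31, and called 327 genes higher and 2028 lower against 775 and 603 with TMM. Under it 14 kinesins were lower, 8 of them mitotic, beside 13.6% of all genes. With 1 library left out, 1, 3 and 1 kinesins were lower without XCON 1, 2 and 3 in turn, then 3, 2 and 1 without XCKO 1, 2 and 3. The share of all genes called lower in those fits lay between 0.847% and 1.85%. All mitotic kinesins kept a negative log2 fold change in each of these 6 fits.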

How the data were processed

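The table the authors deposited holds, per the file headers, raw counts by Ensembl gene, FPKM, group means of scaled counts (a signal), log2 fold changes and p-values. Per the submitters' processing notes, Bowtie 0.12.2 was used, and mm8 and mm10 are both listed with no role. The sources used here do not give the counter, its use of strand or the tool behind the deposited p-values. Libraries were made from Trizol RNA with a NEBNext Ultra kit, per the labels' protocols. Gene coordinates are those of the table, and those printed equal GENCODE M21 on mm10. Promoter windows were instead placed on RefSeq starts on GRCm38.p6.

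Counts of all genes that passed filterByExpr (14873 of 54532) were scaled by TMM (factors 0.85 to 1.117) and tested with edgeR 4.0.16 in R 4.3.3, using the robust quasi-likelihood F test on group, adjusted over all genes tested at a threshold of 0.05. The SE was taken as |log2 fold change| over √F. The biological coefficient of variation was 25.8%. The length correction was a per-library loess (span 0.5) on log2 length, used as an offset. What it smoothed was log2 CPM, with a prior count of 2, minus the gene's mean over the libraries. The procedure was tested on simulated data. The alternatives were size factors, library totals, other filters, DESeq2 1.42.0, the replicate number as a block and each library left out. The count of columns left unmapped was 0.

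The kinesins, their classes and the lists were chosen with earlier results of these data known. Values by library are given for called members, the 3 smallest p and the 2 highest mean FPKM of each class and Kifc1, and for each list up to 4 called members or the smallest p. Others named were chosen after their values were seen. Of 174 list entries, 1 was matched under another name.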

Additional observations from a re-analysis of the deposited data

How the results depend on the processing

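The count of kinesins called lower was 6 as reported, 14 with library totals alone, 10 with no filter, 2 with a filter of 5 CPM in 3 libraries (which drops most mitotic members), 13 with DESeq2, 1 with the replicate number as a block (Kif15) and 0 with block and length correction together. The shares of all genes called lower moved too, from 4.05% to 13.6%, 3.66%, 6.37%, 8.32%, 0.686% and 0.477% in the same order. For mitotic kinesins these were 4 as reported and 8 (totals), 1 (5 CPM), 8 (DESeq2), 1 (block) and 0 (block and length). For non-mitotic kinesins they were 2 as reported and 6 (totals), 4 (no filter), 1 (5 CPM), 5 (DESeq2), 0 (block), 1 (length correction) and 0 (block and length). After length correction 4 members were called, and 0 with the block added. With 1 library left out, the counts ranged from 1 to 3 for all kinesins, 1 to 3 for mitotic and 0 to 0 for non-mitotic ones, and 0 to 3 after length correction. The shares of all genes called lower ranged from 0.847% to 1.85%, and from 0.439% to 1.38% after length correction. The mitotic minus transport median ranged from −1.59 to −1.06 in those fits. No setting called a kinesin higher. Without XCKO 1 and 3, chosen after seeing the data for their globin reads, the mitotic minus transport median was −1.61. That fit has a lone XCKO library, assumed to vary like XCON, so only its effect sizes are given. Kif1b and Kif1c changed sign with library totals (−0.10 and −0.03), and Kif2a was 0.00 with length correction and with length correction and block. Clec4g (−0.04) and S100a8 (−0.75) changed sign without XCKO 1 and 3. The cause of these changes was not tested. The replicate numbers pair nothing in the labels, and same-numbered libraries had correlations of their deviations of 0.055, 0.076 and −0.168, so the block describes a shared number only. Most mitotic kinesins had under 150 reads a library, which limits the precision of each value.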
